A study of Mus musculus with 6 samples.

Results

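The cytosolic ribosomal protein genes encode the proteins of the ribosome that translates nuclear-encoded mRNAs in the cytoplasm. They were chosen here by name: every row of the deposited gene table named Rpl or Rps with a number, together with Rpsa, Rplp0, Rplp1 and Rplp2, without names that hold -ps, and with a mean of at least 10 counts over the 6 libraries. Of 56980 rows, 89 matched the names and 83 also met the minimum, 34 of the small and 49 of the large ribosomal subunit. The rule used gene names and the mean over all libraries, and the set was put forward for comparing its share of counts between the groups, so that share is given as a description. The 6 rows that fell below the minimum were Rpl3l, Rpl6l, Rpl10l, Rpl32l, Rps3a2 and Rps3a3, with means between 0 and 1.37 counts.

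The study asked how fecal microbiota transplantation (FMT) from exercised mice acts on bone marrow mesenchymal stromal cells (MSCs), the plastic-adherent cells that can form bone and fat. All recipients were female mice ovariectomized (OVX) at 8 weeks of age, which removes the main source of estrogen. Antibiotics depleted their own gut microbiota before they received feces by gavage for 8 weeks, from sedentary OVX donors in the TranspCtrl group or from exercised OVX donors in the TranspExer group. Each group had 3 RNA-Seq libraries of cells from the marrow of recipients, grown on plastic for 7 days without sorting by surface markers, and the strain and the number of animals per library were not given in the sources used here.

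The libraries held between 17647638 and 21319166 counts. Markers of other marrow cells were present in all of them, so the cultures were not MSCs alone, and the groups differed in those markers. TranspCtrl 1 stood apart from the other libraries of its group: mitochondrially encoded genes held 1.88% of its counts against 2.90% to 2.91% in TranspCtrl 2 and 3, and summed stromal markers stood at 11880 counts per 1000000 (CPM, with library sizes scaled by the trimmed mean of M-values) against 18910 and 19590. For many of the differences that lay largely in this library, the value without it is also given. In bulk RNA, fewer cells of a ribosome-rich type and less ribosomal protein mRNA per cell cannot be told apart.

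Ribosomes are built from ribosomal RNA and one copy of most of these proteins, so cells make the proteins in matched amounts. Most mammalian ribosomal protein mRNAs begin with a terminal oligopyrimidine (TOP) tract, a C followed by a run of C and U, through which mTORC1 and LARP1 control their translation and stability. Ribosomal protein mRNAs are abundant in growing cells, and partial loss of single ribosomal proteins causes Diamond-Blackfan anemia, a failure of red cell production in the marrow.

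Runs like the TOP tract were looked for in the reference sequence around annotated starts, because the tract is the best known control element of these mRNAs. RefSeq promoters (GRCm38.p6) matched 61 of the 83 members, and the 30 bases centred on each annotated start were read. A run was counted anywhere in this window, also wholly upstream of the annotated start. The shares below are therefore not shares of mRNAs that begin with a tract. Of the 61 members, 33 (54.1%) held a run of at least 6 C or T letters that begins with C, against 22.4% of 27025 promoters. On the opposite strand the shares were 6.56% and 25.1%. The word CTTTC stood in 26.2% of the members' windows against 3.97% of all windows (opposite strand 4.92% and 3.43%), and CTTCC in 19.7% against 6.8% (opposite strand 14.8% and 7.3%). Both words can lie inside the longer run. In the windows below, written 5′ to 3′ on the gene's strand, capitals mark the longest such run. Rpl13a, Rps27 and Rpl27a were among the lowered members. Rplp2 also holds a run of at least 6 and had a positive fold change. Rpl41 and Rps13 hold only a short run in this window.
Rpl13a, chr7:45128731-45128760, minus strand: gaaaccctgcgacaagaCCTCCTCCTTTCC
Rps27, chr3:90213634-90213663, minus strand: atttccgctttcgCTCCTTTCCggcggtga
Rpl27a, chr7:109519180-109519209, plus strand: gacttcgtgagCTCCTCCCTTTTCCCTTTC
Rplp2, chr7:141447636-141447665, plus strand: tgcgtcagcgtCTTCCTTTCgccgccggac
Rpl41, chr10:128549154-128549183, minus strand: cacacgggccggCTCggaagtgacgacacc
Rps13, chr7:116334176-116334205, minus strand: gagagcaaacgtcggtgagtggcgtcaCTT
The 33 members with a run of at least 6 had a median log2 fold change of -0.46 (TranspExer over TranspCtrl), and the 28 with a shorter run one of -0.44. Of these, 18 of 33 (54.5%) and 18 of 28 (64.3%) were called lower in the fit described next, against 56.6% of all members and 15.5% of all genes tested.

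Members held a smaller share of the counts in TranspExer than in TranspCtrl. They took 4.45%, 3.28% and 3.64% of the counts in TranspCtrl 1 to 3 and 2.91%, 2.65% and 2.59% in TranspExer 1 to 3. The means were 3.79% ± 0.599 and 2.72% ± 0.170 (SD, n = 3 each), a ratio of 0.718. Every TranspExer library lay below every TranspCtrl library, and TranspCtrl 1 was the highest. Without TranspCtrl 1 the log2 ratio went from -0.48 to -0.35. The exact two-sided permutation test of 3 against 3 libraries cannot give less than p = 0.1.

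The share was lower in TranspExer for both subunits. Small subunit members held 1.60% ± 0.241 in TranspCtrl and 1.17% ± 0.0799 in TranspExer, and large subunit members 2.18% ± 0.359 and 1.55% ± 0.0905 (SD, n = 3 each). The ratio of small to large subunit counts was 0.736 ± 0.0110 and 0.750 ± 0.00800, with overlapping groups (exact permutation p = 0.2). The proteins of the mitochondrial ribosome, a separate set encoded in the nucleus, held 0.179% ± 0.0236 and 0.165% ± 0.0103, and these groups overlapped. The log2 ratio of TranspExer to TranspCtrl for this set was -0.12, and -0.01 without TranspCtrl 1.

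**Figure D1:**
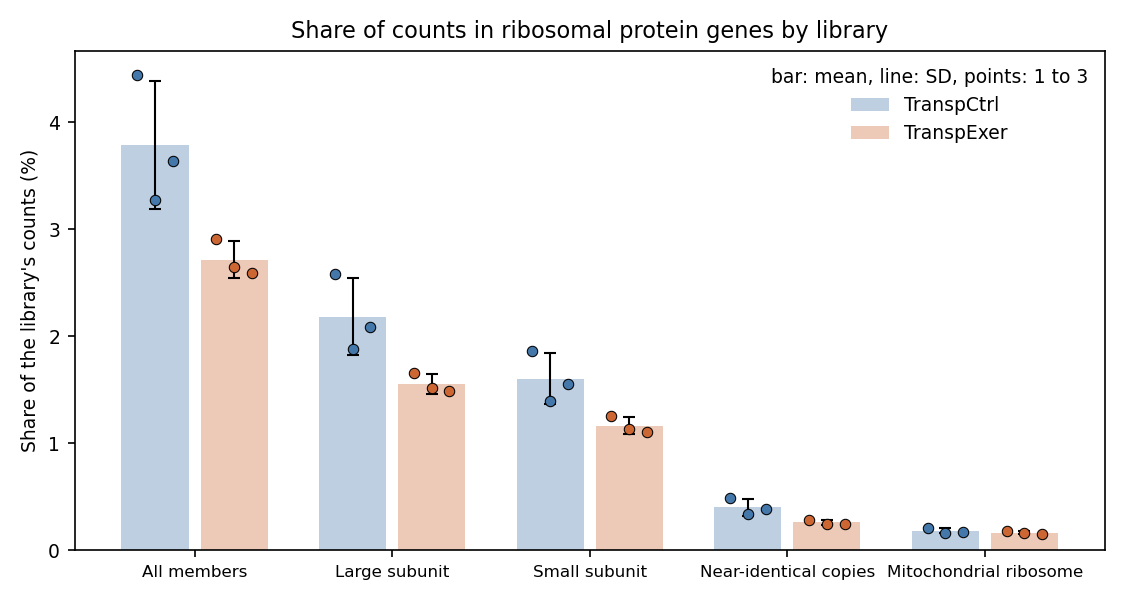
Share of each library's counts (%, vertical axis) in ribosomal protein genes, their subunits, near-identical copies and mitochondrial ribosomal protein genes (bars: group mean, lines: SD, points: libraries 1 to 3 from left to right). Members held 2.59% to 2.91% in TranspExer and 3.28% to 4.45% in TranspCtrl, while the mitochondrial set overlapped between the groups.

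Gene by gene, most members had lower levels in TranspExer. In edgeR's quasi-likelihood fit over 15190 genes, 47 of the 83 members were lower and 1 was higher at an adjusted p below 0.05, where 15.5% of all genes tested were called lower and 16.6% higher. The fold change was negative for 76 members and positive for 7, against 51.6% and 48.4% of all genes. The median log2 fold change was -0.43 for the members and -0.02 for all genes tested. Of the small subunit members 20 of 34 were lower, and of the large subunit members 27 of 49. The 2 groups of libraries did not overlap for 56 members that were lower and 1 that was higher, against 25.1% and 27.2% of all genes tested. Only Rpl39 passed both the adjusted p and a fold of 2 (5.28% of all genes tested did so in this direction and 3.5% in the other). This count was 0 with the replicate number as a block and with offsets for GC content and length, 2 by DESeq2 and with other filters, 3 with library size or upper-quartile scaling, and 0 to 5 with 1 library left out.

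TranspCtrl 1 was the highest of the 6 libraries for 59 of the 83 members, against 31.8% of all genes tested. Without it 61 members were lower and 3 higher (background 19.6% and 22.1%), with a median log2 fold change of -0.32. Without TranspCtrl 3 the number lower was 23 (27.7% of members, background 12%), and without TranspExer 1 it was 17 (20.5%, background 9.06%). Without TranspExer 2 or 3 it was 7 (8.43%, background 8.48%) or 5 (6.02%, background 8.72%), so in these 2 fits members were called lower no more often than all genes tested. The median log2 fold change of the members was -0.41 and -0.42 in them. Of the 47 members called lower with all libraries, 3 were called lower without each library in turn (Rplp0, Rps15a and Rps26), and all 47 stayed negative. For 15 of the 47 the fold change was over 1.5 times smaller without TranspCtrl 1. The coefficient of variation within a group had a median of 17.5% over the members in TranspCtrl and 7.70% in TranspExer, against 13.1% and 7.16% over all genes tested. After offsets for GC content and transcript length, the median log2 fold change of the members was -0.28, with 42 lower and 2 higher (background 17.0% and 17.6%). Of the members named below, Rpl7 (-0.18), Rplp1 (-0.18), Rps26 (-0.17), Rps4x (-0.14), Rps3a1 (-0.10) and Rpl23a (-0.14) were then no longer called. Their edgeR adjusted p was 0.195, 0.238, 0.187, 0.275, 0.548 and 0.129. Rps14 (-0.71), Rpl10 (0.38), Rpl17 (-0.51) and Rpl35 (-0.49) gained a call (edgeR adjusted p = 0.0434, 0.00767, 0.0416 and 0.0273). Rpl36al, which is not a member, gained one too (-0.29, edgeR adjusted p = 0.0457). The falls of Rpl39, Rpl36a, Rps27, Rpl22l1 and Rpl39l shrank by over 1.5 times, to -0.69, -0.47, -0.44, -0.35 and -0.55, and stayed called.

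**Figure D2:**
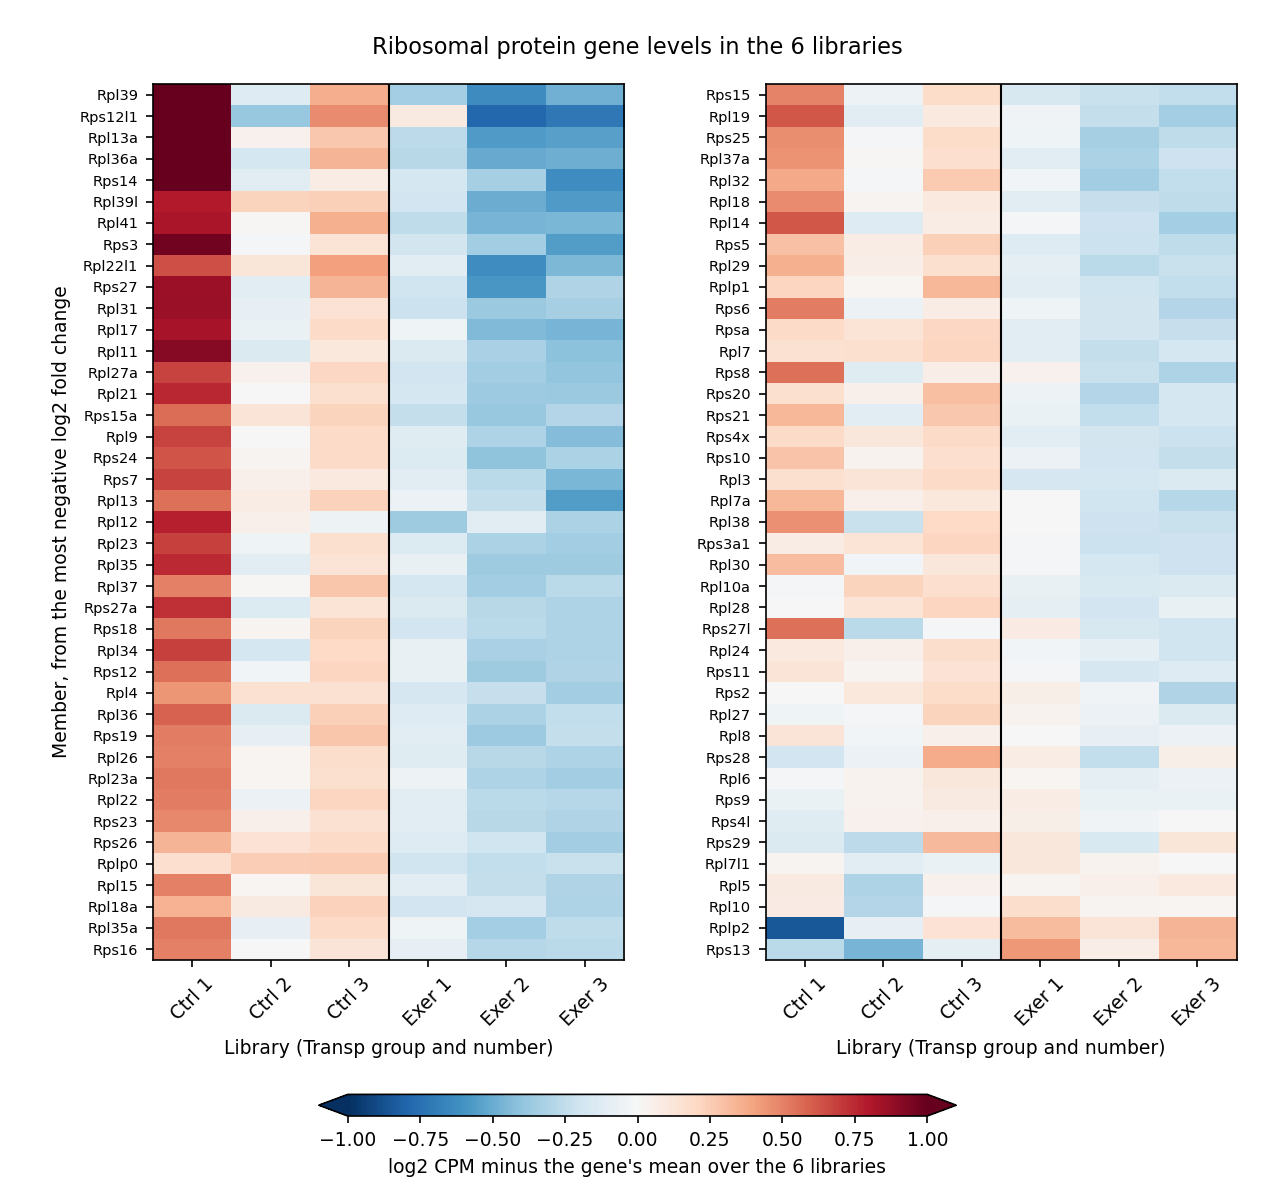
Level of the members in each library, as log2 CPM minus the gene's mean over the 6 libraries (color), with members sorted by log2 fold change from the top of the left panel to the foot of the right. The column of TranspCtrl 1 is the darkest red for most members, and Rplp2 and Rps13 at the foot run the other way.

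Among the members called lower, the 5 with the most negative fold changes belonged to the large subunit (Rpl39, Rpl13a, Rpl36a, Rpl39l and Rpl41), and Rps3 of the small subunit came next. Rpl39 (chrX:37082520-37085402 in GRCm38), a very small protein that lines the exit tunnel for the nascent chain, stood at 242, 95.3 and 134 CPM in TranspCtrl 1 to 3. It stood at 82.3, 67.4 and 74.7 CPM in TranspExer 1 to 3. The log2 fold change was -1.07 ± 0.30 (SE; edgeR adjusted p = 0.0281), and the groups did not overlap although TranspCtrl 2 lay close to TranspExer 1. Without TranspCtrl 1 it was -0.62, and without TranspExer 1, 2 or 3 the edgeR adjusted p was 0.0783, 0.102 and 0.0983.

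Rpl13a (chr7:45125558-45128761), which is also known as a regulator of inflammatory transcripts outside the ribosome, had 752, 373 and 436 CPM in TranspCtrl and 302, 245 and 248 CPM in TranspExer. All TranspExer libraries lay below all TranspCtrl libraries (log2 fold change -0.97 ± 0.24, edgeR adjusted p = 0.0196; -0.61 without TranspCtrl 1). Rpl41 (chr10:128548114-128549305), which encodes the shortest ribosomal protein, had 669, 383 and 486 CPM against 318, 275 and 277 CPM. The groups again did not overlap (-0.82 ± 0.19, edgeR adjusted p = 0.0134).

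Rpl36a (chrX:134585654-134588062) had 176, 72.8 and 104 CPM in TranspCtrl and 67.6, 57.9 and 58.4 CPM in TranspExer. Its log2 fold change was -0.94 ± 0.28 (edgeR adjusted p = 0.0352), and TranspCtrl 2 lay only just above TranspExer 1. Without TranspCtrl 1 it was -0.53. Rps3 (chr7:99477896-99483738), at the mRNA entry site and also a DNA repair factor, had 844, 427 and 474 CPM against 379, 339 and 294 CPM. It fell by 0.79 on the log2 scale (SE 0.25, edgeR adjusted p = 0.0419), and without TranspCtrl 1 by 0.42. Without TranspExer 1, 2 or 3 the edgeR adjusted p was 0.0872, 0.118 and 0.148.

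Rps14 and Rps12l1 had large negative fold changes that did not pass the edgeR test with all libraries. Rps14, whose loss underlies the anemia of the 5q deletion syndrome, had 501, 208 and 235 CPM in TranspCtrl and 198, 177 and 145 CPM in TranspExer (log2 fold change -0.86 ± 0.31, edgeR adjusted p = 0.0686). Most of that difference lay in TranspCtrl 1, and without it the value was -0.36 (edgeR adjusted p = 0.0122). Rps12l1, annotated in GENCODE M21 as a processed pseudogene, had 20.8, 6.47 and 11.7 CPM against 8.95, 4.88 and 5.12 CPM. Its groups overlapped (log2 fold change -1.04, edgeR adjusted p = 0.0895, and -0.53 without TranspCtrl 1). With the replicate number as a block Rps14 and Rps12l1 passed (edgeR adjusted p = 0.0289 and 0.0104). They also passed without TranspCtrl 2 (edgeR adjusted p = 0.0292 and 0.0207). By DESeq2 Rps12l1 passed (adjusted p = 0.0303) and Rps14 did not (0.140).

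The most precisely measured falls were in abundant members. Rplp0 (chr5:115559467-115563727), the base of the ribosomal stalk and a common reference gene in RT-qPCR, had 1967, 2071 and 2089 CPM in TranspCtrl and 1522, 1474 and 1500 CPM in TranspExer. Neither group spread by more than a few percent, and the log2 fold change of -0.45 ± 0.08 had the smallest adjusted p among the members (edgeR, 0.00536). Rpl3, which helps to form the peptidyl transferase center, varied least within both groups, with coefficients of variation of 2.20% and 1.03%. It had 1063, 1039 and 1086 CPM against 844, 841 and 857 CPM (-0.33 ± 0.08, edgeR adjusted p = 0.0149). Rpl7 and Rpsa, the next least variable in TranspCtrl, fell by 0.35 each on the log2 scale (edgeR adjusted p = 0.0133 and 0.0141), Rpl7 not past the test with the offsets above. In these 4 genes TranspCtrl 1 was not the highest library. Rpl39, Rps14 and Rps12l1 were the most variable members in TranspCtrl, at 48.4%, 51.5% and 55.9%. In TranspExer the most variable were Rps12l1 (36.1%), Rpl22l1 (18.8%) and Rpl17 (17.2%), and Rplp0 (1.60%) and Rpl5 (2.53%) followed Rpl3 among the least.

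Per kilobase of the longest coding transcript, Rplp0 was the most abundant member, at 1504 ± 48.5 CPM per kilobase in TranspCtrl and 1104 ± 17.6 in TranspExer (SD, n = 3 each). Rplp1 followed with 1399 ± 152 and 1078 ± 51.0, and the levels of the 2 stalk genes lay within their spread of each other. By the mean over all libraries Rps2, Rps4x and Rps3a1 came next, at 1125 ± 74.7, 1077 ± 33.3 and 1037 ± 51.1 CPM per kilobase in TranspCtrl, and these 3 lay within their spread of their neighbors in this order. Rpl23a, the next by that mean, had 1086 ± 206 in TranspCtrl, between Rps2 and Rps4x. Rps2 lay below Rplp1 in TranspCtrl by more than the sum of their SDs. The median member stood at 370 CPM per kilobase over all libraries. The lowest were Rps12l1, Rpl39l, Rps4l, Rpl12 and Rpl5, between 13.7 and 24.2 CPM per kilobase over all libraries. The 2 canonical genes at the foot of this order, Rpl12 and Rpl5, had most counts of their sequence on another row of the table.

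Ribosomal protein genes have many processed pseudogenes, and several copies in the mouse genome are identical in coding sequence to the gene they came from. In GENCODE M21, 571 copies matched 75 members at 95% identity or more over at least 80% of the coding sequence, and 57 of these copies had a mean of 10 counts or more. Of the 57, 21 were identical to the member over the aligned length. A read from an identical stretch cannot be assigned by its sequence, and how the reads were shared out is not given in the sources used here. Copies held more than 50% of the summed counts (member plus copies) for 4 members: 96.2% for Rpl5, 95.7% for Rpl12, 62.3% for Rpl27a and 51.3% for Rpl10. For Rpl5 the counts lay on Gm15500 (chr7:114705217-114706235), with a mean of 14070 counts, and for Rpl12 on Gm10275 (chr10:29698746-29699380), with 8759.

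This bears on the members with positive fold changes. Rps13 (chr7:116331505-116334195), a small subunit protein, was the 1 member called higher: 121, 105 and 137 CPM in TranspCtrl and 197, 152 and 183 CPM in TranspExer (log2 fold change 0.55 ± 0.13, edgeR adjusted p = 0.0145). Without TranspExer 1 or 3 the edgeR adjusted p was 0.0673 and 0.0662. Its copy Rps13-ps1 (chr8:87047689-87048226) went the other way, with 2243, 2374 and 2720 counts in TranspCtrl and 759, 763 and 1054 counts in TranspExer (log2 fold change -1.39). The 2 coding sequences differ by 2 substitutions in 453 bases, T411C and A429G, counted from 1 at the A of the start codon with the base of Rps13 first. The stretch from 406 to 435, with these bases in capitals, shows how little separates them.
Rps13: ccaccTaattggaaatatgagtcAtccaca
Rps13-ps1: ccaccCaattggaaatatgagtcGtccaca
Summed over Rps13 and its copies, the level was 233, 243 and 269 CPM in TranspCtrl and 238, 208 and 239 CPM in TranspExer. These groups overlapped, and the log2 fold change was -0.12 ± 0.09 (edgeR adjusted p = 0.350).

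Rpl5 and Rpl10 also changed sign in the sum. Rpl5, which with Rpl11 and the 5S RNA forms the particle that can stabilize p53, had a log2 fold change of 0.10 ± 0.12 on its own row and -0.34 ± 0.10 with its copies (edgeR adjusted p = 0.511 and 0.0296). With copies it stood at 880, 761 and 844 CPM in TranspCtrl and 711, 632 and 614 CPM in TranspExer, without overlap. Rpl10, which joins the large subunit last, had 0.14 ± 0.11 on its own row and -0.32 ± 0.11 with its copies (edgeR adjusted p = 0.360 and 0.0626). Without TranspCtrl 1 both values passed the test, at 0.22 and -0.21 (edgeR adjusted p = 0.0344 and 0.0166). Rpl12, a stalk base protein, had -0.57 ± 0.22 on its own row and -0.64 ± 0.16 with its copies (edgeR adjusted p = 0.0773 and 0.0191). Without TranspCtrl 1 they were -0.26 and -0.42.

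With copies summed, 50 members were lower and 0 were higher by edgeR (background 15.9% and 16.2%; at an unadjusted p below 0.05 also 0 were higher), and the median log2 fold change was -0.44. The fold change was then negative for 79 and positive for 4 (background 52.5% and 47.5%). The groups did not overlap for 59 members that were lower and 0 that were higher (background 25.8% and 26.8%), and 24 overlapped. Without TranspExer 2 or 3 the number lower was 8 (9.64%, background 8.58%) and 6 (7.23%, background 8.81%). The copies themselves held 0.484%, 0.334% and 0.384% of the counts in TranspCtrl 1 to 3 and 0.285%, 0.244% and 0.249% in TranspExer 1 to 3. What part of the rise on the Rps13 row comes from the assignment of reads was not tested.

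**Figure D3:**
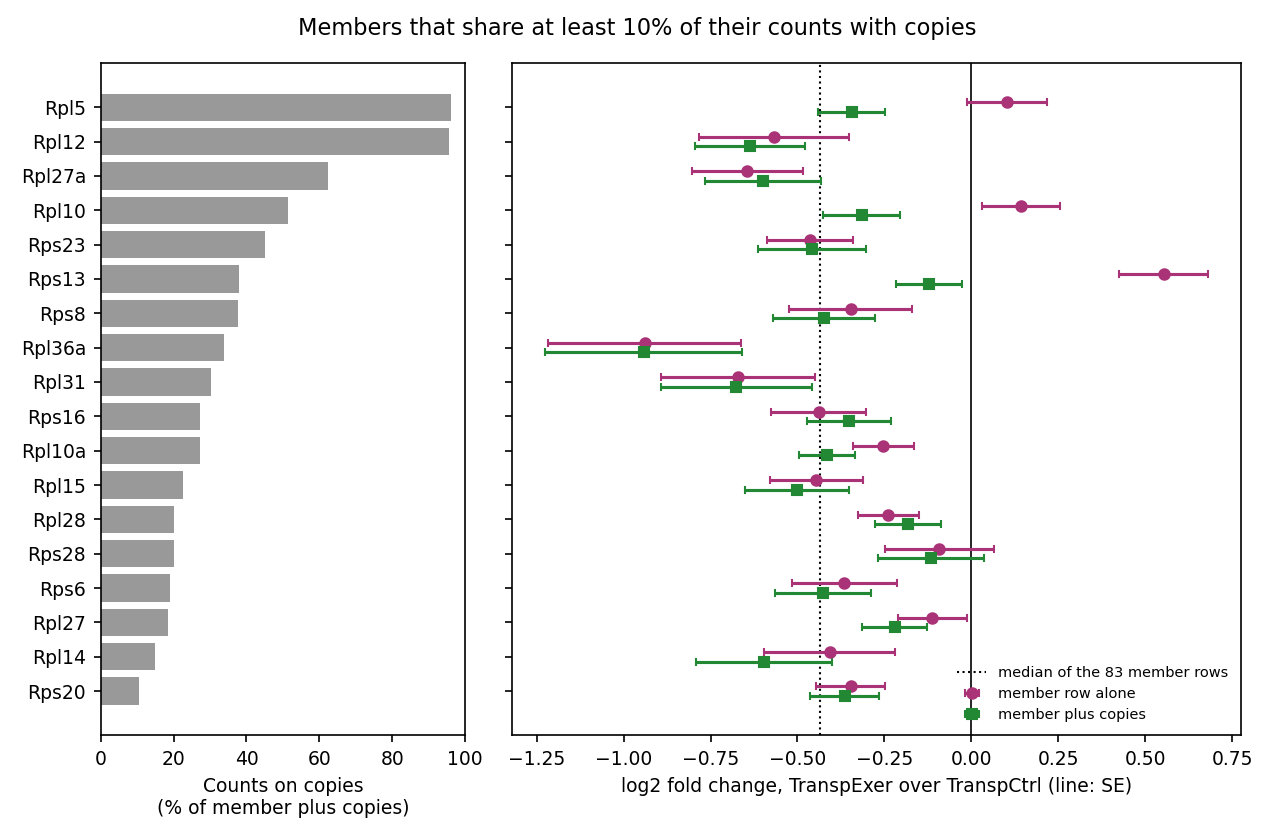
Left, share of counts on near-identical copies (%) for the 18 members where it is at least 10%. Right, log2 fold change of the member's row alone (circles) and of member plus copies (squares), with SE: Rps13 goes from 0.55 to -0.12, Rpl5 from 0.10 to -0.34 and Rpl10 from 0.14 to -0.32, while most other members move little.

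The other members at the upper end had few or no copies. Rplp2, one of the acidic stalk proteins that recruit elongation factors, had 242, 411 and 482 CPM in TranspCtrl and 542, 477 and 551 CPM in TranspExer (log2 fold change 0.47 ± 0.22, edgeR adjusted p = 0.139). TranspCtrl 1 was by far the lowest, and TranspCtrl 3 overlapped with TranspExer. Without TranspCtrl 1 the value was 0.23 (edgeR adjusted p = 0.0259). Its partners in the stalk did not share this sign: Rplp0 and Rplp1 fell, the latter by 0.38 on the log2 scale (edgeR adjusted p = 0.0249; -0.18 and 0.238 with the offsets). Rpl7l1, Rps29, Rps4l and Rps9 had log2 fold changes between -0.04 and 0.09, and none passed the test. Rps9, near the mRNA entry site, had 653, 701 and 729 CPM against 720, 652 and 651 CPM, so TranspExer 1 lay inside the TranspCtrl range and the other two just below its lowest library.

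As a share of all members' counts, which does not depend on scaling between libraries, Rps13 made up 0.331% ± 0.0444 in TranspCtrl and 0.632% ± 0.0638 in TranspExer, and Rplp2 1.06% ± 0.413 and 1.87% ± 0.161 (SD, n = 3 each). Rpl8, Rpl6 and Rps9, whose copies held under 1% of the summed counts, had a larger share in every TranspExer library, by log2 ratios of 0.28, 0.28 and 0.33. Rpl39 and Rpl13a had a smaller one in every TranspExer library, by -0.64 and -0.56. These values are descriptions with no test.

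Genes closely related to a canonical member were compared with it within each library as a share of the pair's counts, with an exact permutation test of the log2 ratio whose smallest p is 0.1. GENCODE M21 annotates 2 of these 7 genes as processed pseudogenes, Rps12l1 and the transcribed Rps4l, and the others as protein coding. The pairs did not move together. Rps27l, a p53 target, made up 22.2%, 24.0% and 21.6% of the Rps27l and Rps27 counts in TranspCtrl and 29.96%, 32.05% and 27.42% in TranspExer (p = 0.1, exact permutation). Every TranspExer library was higher, as Rps27 fell (log2 fold change -0.77, edgeR adjusted p = 0.0334) and Rps27l had a log2 fold change of -0.22 (edgeR adjusted p = 0.418). Without TranspCtrl 1 these fold changes were -0.49 and 0.05. The shares of Rpl7l1 (8.85% ± 0.476 and 11.7% ± 0.336), Rpl36al (54.6% ± 5.51 and 62.2% ± 0.258) and Rps4l (1.45% ± 0.121 and 1.84% ± 0.0440) were also higher in every TranspExer library (p = 0.1 each, exact permutation). The log2 ratio of Rpl36al to Rpl36a was higher by 0.45 in TranspExer, and by 0.29 without TranspCtrl 1.

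Rpl22l1 went the other way. This paralog, which Rpl22 represses through its pre-mRNA, made up 23.6%, 24.2% and 24.3% of the pair's counts in TranspCtrl and 22.1%, 18.1% and 20.1% in TranspExer (p = 0.1, exact permutation). Rpl22l1 had a log2 fold change of -0.78 and Rpl22 of -0.46 (edgeR adjusted p = 0.0104 and 0.0369). Rpl39l, which is known for its use in male germ cells, fell about as far as Rpl39 (log2 fold change -0.85, edgeR adjusted p = 0.0100), and its share of the pair overlapped between groups (13.8% ± 3.27 and 14.7% ± 1.098). The share of Rps12l1 also overlapped (2.16% ± 0.784 and 1.55% ± 0.378).

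**Figure D4:**
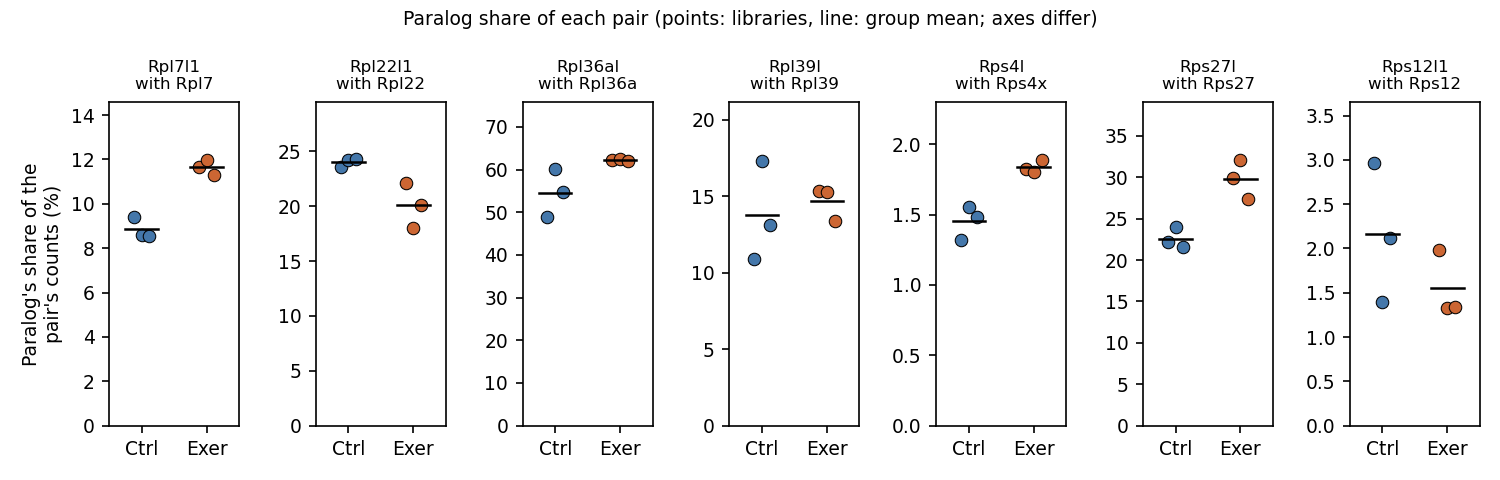
Share (%) of each paralog in the counts of itself and its parent gene, by library (points) with group means (lines), each panel on its own axis from 0. The TranspExer libraries lie above all TranspCtrl libraries for Rpl7l1, Rpl36al, Rps4l and Rps27l, below for Rpl22l1, and overlap for Rpl39l and Rps12l1.

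Groups of members by place or disease were called lower about as often as the members as a whole (56.6%, against 15.5% of all genes tested), so these counts set no group apart. At the rim of the exit tunnel 4 of 7 proteins were lower (median log2 fold change -0.56). At the mRNA entry and exit sites 4 of 7 were lower (-0.40), and of the stalk and its base 2 of 4 (-0.41). Among the genes whose mutation causes Diamond-Blackfan anemia, 9 of 16 were lower (-0.44), among them Rps26, Rps24 and Rpl26 (log2 fold changes -0.45, -0.59 and -0.48). Without TranspExer 1, 2 or 3 the exit tunnel count was 0 each time and the Diamond-Blackfan count 1 each time, and without TranspCtrl 3 they were 2 and 4. With the replicate block and without TranspCtrl 2 the exit tunnel count was 7. Without TranspCtrl 1 the medians of these groups were -0.34 and -0.28, and it was the highest library for all 7 tunnel genes. Without TranspExer 2 or 3 the count at the entry and exit sites was 1, and without any 1 TranspExer library that of the stalk was 1. Of the 5S particle neither Rpl5 nor Rpl11 passed the test on its own row by edgeR, and Rpl11 had a log2 fold change of -0.65 ± 0.25 (edgeR adjusted p = 0.0768). It passed by DESeq2 (adjusted p = 0.0236), with the replicate number as a block (edgeR adjusted p = 0.0369), without TranspCtrl 2 (0.0257) and without TranspCtrl 1 (0.0159), where the value was -0.28. Of 5 ribosomal proteins outside the naming rule, 1 was lower, the scaffold Rack1 (log2 fold change -0.25, edgeR adjusted p = 0.0400), and the count was 0 without TranspCtrl 3 or any 1 TranspExer library, 2 by DESeq2, with the replicate block and without TranspCtrl 2, and 3 without TranspCtrl 1. Fau and Rpl36al had values of -0.42 and -0.41, and of -0.21 and -0.22 without TranspCtrl 1. Rps27rt held only 0 to 45 counts per library, and its fold change is not given.

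Outside the ribosome, 8 of 21 other mRNAs with a TOP start and elongation factors were lower and 0 higher by edgeR (0 also at an unadjusted p and by DESeq2), with a median log2 fold change of -0.26. The share lower was 38.1%, against 15.5% of all genes tested. Without TranspCtrl 3 or TranspExer 1, 2 or 3 the count was 5, 3, 2 and 2 of the 21. In these fits 12%, 9.06%, 8.48% and 8.72% of all genes tested were lower. The list was thus near the background without TranspExer 2 or 3. The 8 called with all libraries were led by the initiation factor subunits Eif3e (-0.52) and Eif3a (-0.32), the nucleolar chaperone Npm1 (-0.50) and the nascent-chain complex subunit Naca (-0.45). Their edgeR adjusted p was 0.00252, 0.0141, 0.00601 and 0.0139. Of 37 initiation factors 7 were lower and 0 higher by edgeR (4 at an unadjusted p, 2 by DESeq2), and their median was -0.02. The share lower of 18.9% was near that of all genes tested, so the count says nothing particular of the list. With library size or upper-quartile scaling 12 were lower. Without TranspCtrl 1, 12 were lower and 5 higher (background 19.6% and 22.1%). Without TranspExer 1, 2 or 3 the number lower was 4, 2 and 2 (background 9.06%, 8.48% and 8.72%). Besides Eif3e and Eif3a the called genes were led by Eif2s2 (-0.41, edgeR adjusted p = 0.00748) and Eif3i (-0.37, edgeR adjusted p = 0.0161).

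Lists of genes that build ribosomes or control their mRNAs had calls in both directions, at shares near or below those of all genes tested (15.5% lower and 16.6% higher). Of 62 ribosome biogenesis factors 6 were lower (9.68%) and 2 higher (3.23%; median -0.03), with Riok1 (-0.55) and Tsr1 (-0.45) lower and Bysl (0.43) higher (edgeR adjusted p = 0.00836, 0.00979 and 0.0182). The split was 11 to 1 with library size and 10 to 1 with upper-quartile scaling. Without TranspCtrl 1, 8 were lower and 8 higher, without any 1 TranspExer library 0 were higher, and without TranspExer 2 or 3 the number lower was 3. Of 20 tested genes of RNA polymerase I and rDNA transcription 3 were lower and 3 higher (15% each; median -0.06), among them Polr1c (-0.39) below and Mycn (1.48), Taf1c (0.55) and Max (0.35) above, with edgeR adjusted p of 0.0142, 0.00343, 0.00653 and 0.0252. Without TranspExer 1, 2 or 3 the number lower was 1, 0 and 1, and without TranspCtrl 1 there were 5 higher. Of 29 tested genes of mTORC1 and TOP mRNA control 2 were lower (6.90%) and 6 higher (20.7%; median 0.09), and without any 1 TranspExer library 1 was lower and 3 were higher. The translation repressor Eif4ebp1 fell by 0.52, while the mTORC1 anchor Lamtor1 (0.41), the Rag GTPase Rragd (0.72) and the kinase Rps6ka1 (0.47) rose (edgeR adjusted p = 0.00241, 0.00484, 0.00871 and 0.00881). Of 78 mitochondrial ribosomal protein genes 1 was lower (1.28%) and 5 higher (6.41%), and their median was -0.09, and 0.02 without TranspCtrl 1.

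**Figure D5:**
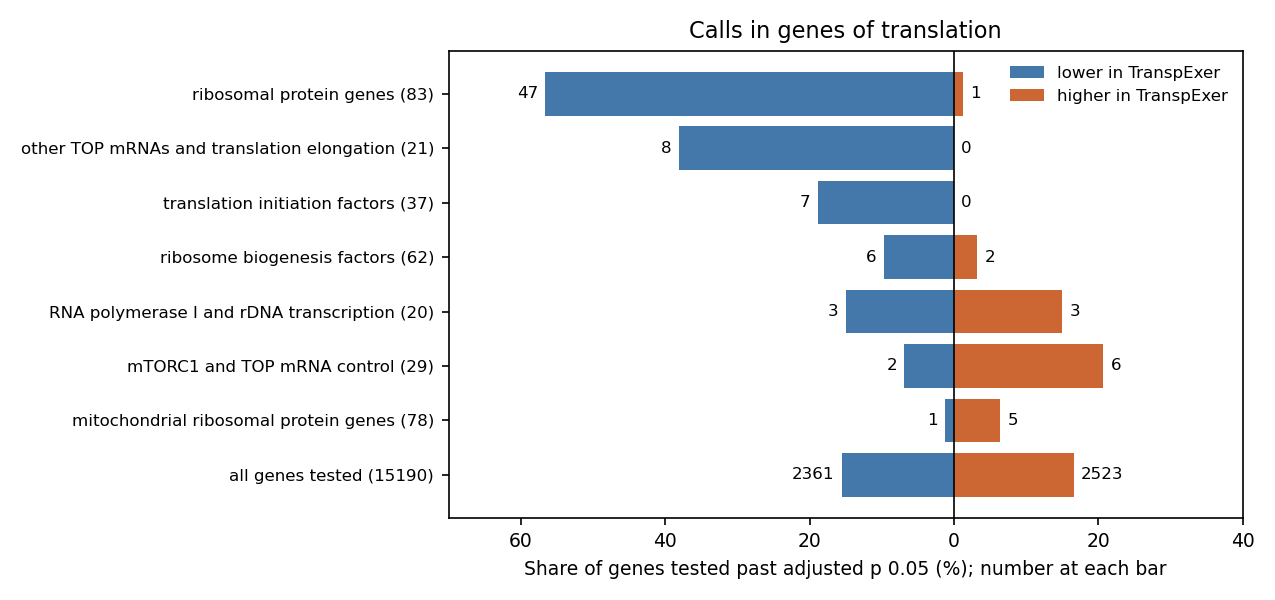
Share of genes tested in each list (%, horizontal axis, list sizes in parentheses) past an adjusted p of 0.05 in edgeR, lower to the left and higher to the right, with the number of genes at each bar. Ribosomal protein genes had 47 lower and 1 higher, mitochondrial ribosomal protein genes 1 and 5.

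Markers of other cell types also differed between the groups, and their part in the result was not tested. Of 10 plasma and B cell markers 8 were lower, and their summed level was 5106 to 8565 CPM in TranspCtrl and 1315 to 1435 CPM in TranspExer, led by Ighm, Igkc, Jchain and Sdc1. Among macrophage markers 2 of 9 were lower and 1 higher, with 8539 to 13430 and 6585 to 7240 CPM, led by Lyz2, Csf1r, Cd68 and Mrc1. Without any 1 TranspExer library 1 macrophage marker was lower, and without TranspCtrl 1 there were 3 higher. The log2 ratio of the macrophage sums, TranspExer over TranspCtrl, was -0.565, and -0.324 without TranspCtrl 1. The background for these counts of markers, here and below, is 15.5% lower and 16.6% higher with all libraries. It is 19.6% and 22.1% without TranspCtrl 1, and 9.06%, 8.48% and 8.72% lower without TranspExer 1, 2 and 3. TranspCtrl 1 had the most of both sums, as it had for the members.

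Neutrophil and progenitor markers went the other way, with 1 of 9 lower and 4 higher and sums of 3220 to 4298 and 5673 to 5915 CPM, led by Ngp, S100a9, Mpo and Ltf. The 1 lower call was lost by DESeq2, with the replicate block and without each library in turn. All 7 endothelial markers were higher, with 185 to 224 and 572 to 625 CPM, led by Cdh5, Pecam1, Kdr and Emcn. Of 9 T and NK cell markers 1 was lower and 2 higher, with 59.9 to 63.6 and 80.2 to 85.9 CPM, and Cd4, Nkg7, Cd3e and Trac had the highest levels. These calls ranged from 0 to 2 lower and from 1 to 2 higher with 1 library left out. Of 8 erythroid markers only Epor could be tested and it was higher, and the 4 hemoglobin genes held at most 10 counts in any library.

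Of 11 stromal markers 7 were lower and 2 higher (1 higher without TranspCtrl 3 or TranspExer 2 or 3). Col1a1, Col1a2, Cxcl12 and Ly6a had the highest levels, and the sums of 11880 to 19590 and 12640 to 13900 CPM overlapped only through TranspCtrl 1. Of 10 proliferation markers 1 was lower and 4 higher, led by Mki67, Top2a, Pcna and Mcm5, with overlapping sums of 1016 to 1130 and 1109 to 1113 CPM. The 1 lower call was lost with the replicate block and without each library in turn except TranspCtrl 1, and 2 were higher without TranspExer 1 or 3.

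Across the 83 members the fold change was only weakly tied to other features of the genes. Pearson's r was 0.134 with the GC content of the transcript, 0.107 with log2 transcript length and 0.137 with log2 mean CPM, given as descriptions over genes that share the same 6 libraries. Members are short, with a median transcript length of 914 bases against 3011 over all genes tested, and their median GC content was 51.6% against 49.7%. The excess in TranspCtrl 1 over TranspCtrl 2 and 3 and the log2 ratio of TranspExer to TranspCtrl 2 and 3 had an r of -0.443, and both of these measures contain TranspCtrl 2 and 3. Chromosome 7 held 15 of the 83 members, the most of any chromosome, and chromosomes 9, 11 and 17 held 7 each. Exons of 20 members overlap a gene on the opposite strand. In 7 of them (Rps18, Rpl28, Rpl12, Rpl5, Rpl18, Rpl35 and Rpl31) that gene had at least 10% of the member's counts, and their values are less certain if the counting ignored strand.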

How the data were processed

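Bone marrow MSC libraries were sequenced on an Illumina platform, and the authors deposited 1 table of expected counts per gene for the 6 samples, with few values that are not whole, on a build the submitters' processing notes name as mm10. The aligner, the counter and the annotation are not given in the sources used here. Groups came from the labels. Nothing in the labels ties a library to an animal, so p-values measure the spread between these libraries, which may be technical.

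Expected counts were rounded, filtered with filterByExpr, scaled by TMM and tested with edgeR 4.0.16 in R 4.3.3 (quasi-likelihood, Benjamini-Hochberg over the 15190 genes tested). Thresholds were an adjusted p of 0.05 and a fold of 2, as in the study's methods. Single values were compared by exact two-sided permutation tests over libraries in SciPy 1.17.1. The fits were tested on simulated data. Gene models, GC content and lengths came from GENCODE M21, which held 52125 of the gene IDs. Coding sequences of members were aligned with BLAST 2.17.0 to pseudogene, -ps and Gm transcripts, and each copy was assigned to its best member. A paralog's log2 ratio used a prior of 0.5 counts.

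The genes named are the members past both thresholds, the 8 highest and 8 lowest log2 fold changes, each paralog with its parent, the 5 highest and 5 lowest levels per length, the 3 most and least variable members in a group, the stalk and 5S particle, up to 4 genes by adjusted p of each list outside the members, and the 4 most abundant markers of each cell type. Rpl8, Rpl6, Rps9 in the share of members' counts, Rpl27a, Rps15a, the overlapping genes and the copies were named after their values were seen. Rows for the copies, the mitochondrial ribosomal proteins, the Rps12l1 pair and the deposited length column were added after seeing the data. Members and lists were chosen with earlier results of these data known. Some single genes are not reported here by name. Alternatives were DESeq2 1.42.0, other scalings and filters, a replicate block, offsets for GC and length, a fold of 2 tested in the model, and leaving out each library.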

Additional observations from a re-analysis of the deposited data

How the results depend on the processing

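The lower share of counts in members kept its direction in every alternative run, with differences between -1.38 and -0.74 percentage points against -1.07, as did the median log2 fold change, between -0.53 and -0.28. Library size and upper-quartile scaling move the median of all genes tested to -0.10, against which the members stood at -0.53 and -0.52. Members called lower numbered 41 to 64 with all libraries, copies summed or not, against 47. They numbered 5 to 61 when 1 library was left out (background 8.48% to 19.6%), and 6 to 70 when copies were also summed (background 8.58% to 19.8%; 18 without TranspExer 1, 23 without TranspCtrl 3). The members' share was at or below the background without TranspExer 2 or 3, and with copies summed it was below it without TranspExer 3 and near it without TranspExer 2 (9.64% against 8.58%). The cause was not tested.

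Members called higher numbered 2 with offsets for GC and length (also with the replicate block), 0 with copies summed (also with the block), 0 to 3 with 1 library left out, and 0 to 1 with copies also summed. Members lower past both thresholds numbered 2 with DESeq2, without the filter and with a mean of at least 50 counts, 3 with library size or upper-quartile scaling, and 0 with the replicate block (copies summed or not), with both offset fits and when the fold of 2 was tested in the model. With 1 library left out they numbered 0 to 5, with or without copies. Over all genes tested, 1325 to 3041 were lower and 1315 to 3417 higher with 1 library left out.

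With the replicate number as a block, edgeR called 58 members lower and 1 higher (background 14.6% and 16.4%). The numbers do not pair the libraries: same-numbered libraries had correlations of deviations of 0.0247, -0.0017 and 0.0416, and not every library correlated best with its own number.

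Signs reversed for 8 values near 0 or with copies. With copies summed, Rpl10 had -0.32 (-0.31 with the block), Rpl5 -0.34 (-0.34) and Rps13 -0.12 (-0.12). Rpl5 on its own row ranged from -0.0075 to 0.18 with 1 library left out. Rps27l had 0.19 with offsets and 0.20 with offsets and block, and ranged from -0.38 to 0.047 with 1 library left out. Rps29 had -0.042 under library size and -0.036 under upper-quartile scaling and ranged from -0.068 to 0.24. Rps4l had -0.068 and -0.061 under these scalings, -0.00055 with TMM without immunoglobulin genes and -0.013 with a mean of at least 50 counts, and ranged from -0.038 to 0.046. Rps9 had 0.012 with offsets and 0.021 with offsets and block. The log2 ratio of Rpl39l to Rpl39 differed by -0.048 to 0.34 between groups with 1 library left out. Over the named members and these alternatives, the fold change kept direction and side of the threshold 427 times, lost its call 62 times and gained one 48 times. Counts of calls in the other lists stayed within 1.5 times 304 times and moved further 96 times. Ranks per length depend on the transcript: the ratio of the highest to the lowest member was 94.97, against 223 with all exons and 112 with the deposited length column. The shallowest member, Rps12l1, had 84 to 426 counts per library.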
